A study of Homo sapiens with 15 samples.

Results

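The Rab GTPase family is the set of genes named RAB followed by a number and, where there are several, a letter, without their effectors. Members were chosen by symbol alone, and 60 of the 18417 measured genes belonged to the family. The mean signal over all 15 arrays decided only which probeset stood for a gene, and only RAB7A, RAB13 and RAB44 had more than 1 to choose from. The samples, on Affymetrix whole-transcript arrays, were endothelial cells of the human umbilical vein (HUVEC) and exosomes, vesicles of endosomal origin that cells shed. There were 5 groups of 3 arrays. HUVEC were left untreated or spent 6 h with exosomes of either JK or JINB8 cells, and the RNA carried by each kind of exosome was measured by itself. JK stands for Jurkat, a CD47-bearing human T cell leukaemia line, and JINB8 for JinB8, a mutant derived from it that lacks CD47, a surface receptor of thrombospondin-1. The mutant is a line of its own, so the absence of CD47 and any other difference between the lines cannot be told apart. HUVEC medium was EGM2 in the exosome incubations, and the vesicles were precipitated from T cell medium. Nothing in the labels tells separate cultures from repeat arrays of one culture, so the p-values reflect only how far these arrays differ within a group, and that spread may be technical.

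Rab proteins are small GTPases that mark the membranes of the cell and steer vesicle budding, transport and fusion. Exchange factors load them with GTP on a membrane, where they recruit effectors, and GTPase-activating proteins switch them off. Geranylgeranyl transferase attaches the lipid anchors that hold them to membranes, and GDP dissociation inhibitors return them to the cytosol. In endothelium RAB27A and members of the RAB3 group sit on Weibel-Palade bodies, the stores of von Willebrand factor, while RAB4 and RAB11 proteins return receptors to the surface. RAB27A, RAB27B and RAB35 are also known for the release of exosomes.

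The levels of the arrays set how the values can be read. The mean array median (log2) was 6.97 in untreated HUVEC but 5.14 (JK-treated) and 5.11 (JINB8-treated) in the other HUVEC, and 5.11 (JK) and 5.12 (JINB8) in exosome RNA. The spread of values on an array was narrower in exosome RNA (SD 1.49 to 1.55) than in treated HUVEC (2.18 to 2.23). Comparisons with untreated HUVEC were therefore read after quantile normalization of the 9 HUVEC arrays, and because no untreated array shared the treated arrays' level, array set and treatment cannot be told apart there. In such bulk RNA, fewer cells of a type and less RNA per cell cannot be told apart either. Mean signals of 10 endothelial markers overlapped between the HUVEC groups on that scale (9.96 to 10.12 untreated, 9.93 to 10.13 with JK and 9.97 to 10.17 with JINB8 exosomes), but single markers went both ways: 2 rose and 2 fell with JK exosomes (-1.03 to 0.61 over the 10) and 3 rose and 3 fell with JINB8 exosomes (-1.34 to 0.87). Those of 10 T cell markers were 4.69 to 4.78 in untreated HUVEC, 4.61 to 4.63 with JK and 4.56 to 4.67 with JINB8 exosomes. CD47 itself had a deposited signal of 4.71 ± 0.02 (SD, n = 3) in JK and 4.73 ± 0.19 in JINB8 exosome RNA, a log2 difference of 0.02 that did not pass (limma, adjusted p = 0.988), so this transcript gave no check of the line labels.

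The promoters of RAB32, RAB3B and RAB3A are shown for their changes in treated HUVEC after quantile normalization. RAB32 fell steeply on that scale, and the paralogs RAB3B and RAB3A moved in opposite directions. As deposited, all of them were lower than in untreated HUVEC. Each run is the 250 bases before the RefSeq start site, 5′ to 3′ on the gene's strand (RefSeq, GRCh38.p14), and capitals mark matches on either strand of 4 motifs: CACGTG (the E-box), ACGTG (the core of the hypoxia response element, which every CACGTG also holds), TGANTCA (AP-1) and GGAATG (the core of the TEAD motif). RAB32 lies at chr6:146543583-146543832 on the plus strand, RAB3B at chr1:51990701-51990950 and RAB3A at chr19:18204043-18204292 on the minus strand.
RAB32: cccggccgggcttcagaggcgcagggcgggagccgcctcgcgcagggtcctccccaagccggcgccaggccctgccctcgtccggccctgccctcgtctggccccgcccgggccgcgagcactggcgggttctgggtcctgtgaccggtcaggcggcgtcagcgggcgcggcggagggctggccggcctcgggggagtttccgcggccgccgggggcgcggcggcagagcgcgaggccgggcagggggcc
RAB3B: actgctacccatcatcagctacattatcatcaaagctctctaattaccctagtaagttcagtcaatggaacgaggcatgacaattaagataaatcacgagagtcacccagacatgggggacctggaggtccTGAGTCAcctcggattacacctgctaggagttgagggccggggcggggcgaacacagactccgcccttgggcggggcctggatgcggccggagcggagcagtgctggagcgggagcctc
RAB3A: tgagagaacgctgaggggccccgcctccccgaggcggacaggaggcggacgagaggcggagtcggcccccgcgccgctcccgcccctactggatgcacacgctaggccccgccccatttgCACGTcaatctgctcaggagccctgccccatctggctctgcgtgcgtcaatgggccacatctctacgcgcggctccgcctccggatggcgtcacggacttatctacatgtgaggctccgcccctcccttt
RAB32 had no match, RAB3B had 1 to TGANTCA and RAB3A had 1 to ACGTG. Among 35116 RefSeq promoters of this length 6.34% held CACGTG, 18.5% ACGTG, 6.57% TGANTCA and 11.9% GGAATG. Of 65 promoters of the 46 members that matched the table, the shares were 7.69%, 27.7%, 7.69% and 9.23%. A match is only these letters in this window, and the shares were not tested.

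Comparing JK-treated with untreated HUVEC asked how the family differed once vesicles of CD47-bearing T cells had been added. Relative to the other genes on the arrays, RAB23 fell most, and RAB32, RAB3B, RAB33A, RAB31 and RAB36 fell with it. RAB3C, RAB3A, RAB24, RAB4A, RAB9B and RAB8B rose relative to other genes, though on the deposited values they too were lower than in untreated cells. In total 15 members rose and 12 fell (limma, Benjamini-Hochberg adjusted p under 0.05). Among called genes 3 of 60 members changed at least 2-fold, all of them lower, against 1054 of all 18417 genes (418 higher and 636 lower). The background was 26.2% of all 18417 genes higher and 22.4% lower, so the family's shares of 25% and 20% were close to it. Either way 45% of members passed, against 48.6% of all genes, and treated and untreated arrays did not overlap for 34 members, against 56.1% of all genes. The median log2 change was 0.06 over the family and 0.02 over all genes. With median centring in place of quantile normalization 30 members rose and 8 fell, where 35.1% and 19.5% of all genes did, and the medians became 0.28 and 0.10. In the deposited values all 60 members were lower, by log2 changes of -4.07 to -0.97, as were 99.3% of all genes (median -1.68). Every direction given for these comparisons is therefore relative to that array-wide shift.

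With JINB8 exosomes 14 members rose and 13 fell on the same scale, where 26% of all genes rose and 23.3% fell. Either way this is 45% of members against 49.3% of all genes, and 34 members had arrays without overlap, against 57.7% of all genes. The family median was 0.07 and that of all genes 0.02. Median centring gave 32 higher and 9 lower, against 38.1% and 18.7% of all genes, with medians of 0.31 and 0.13. All 60 members were lower as deposited, by -3.96 to -0.93, as were 99.1% of all genes. Both comparisons use the same 3 untreated arrays, so their values below are given side by side and one is no check of the other.

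**Figure D1:**
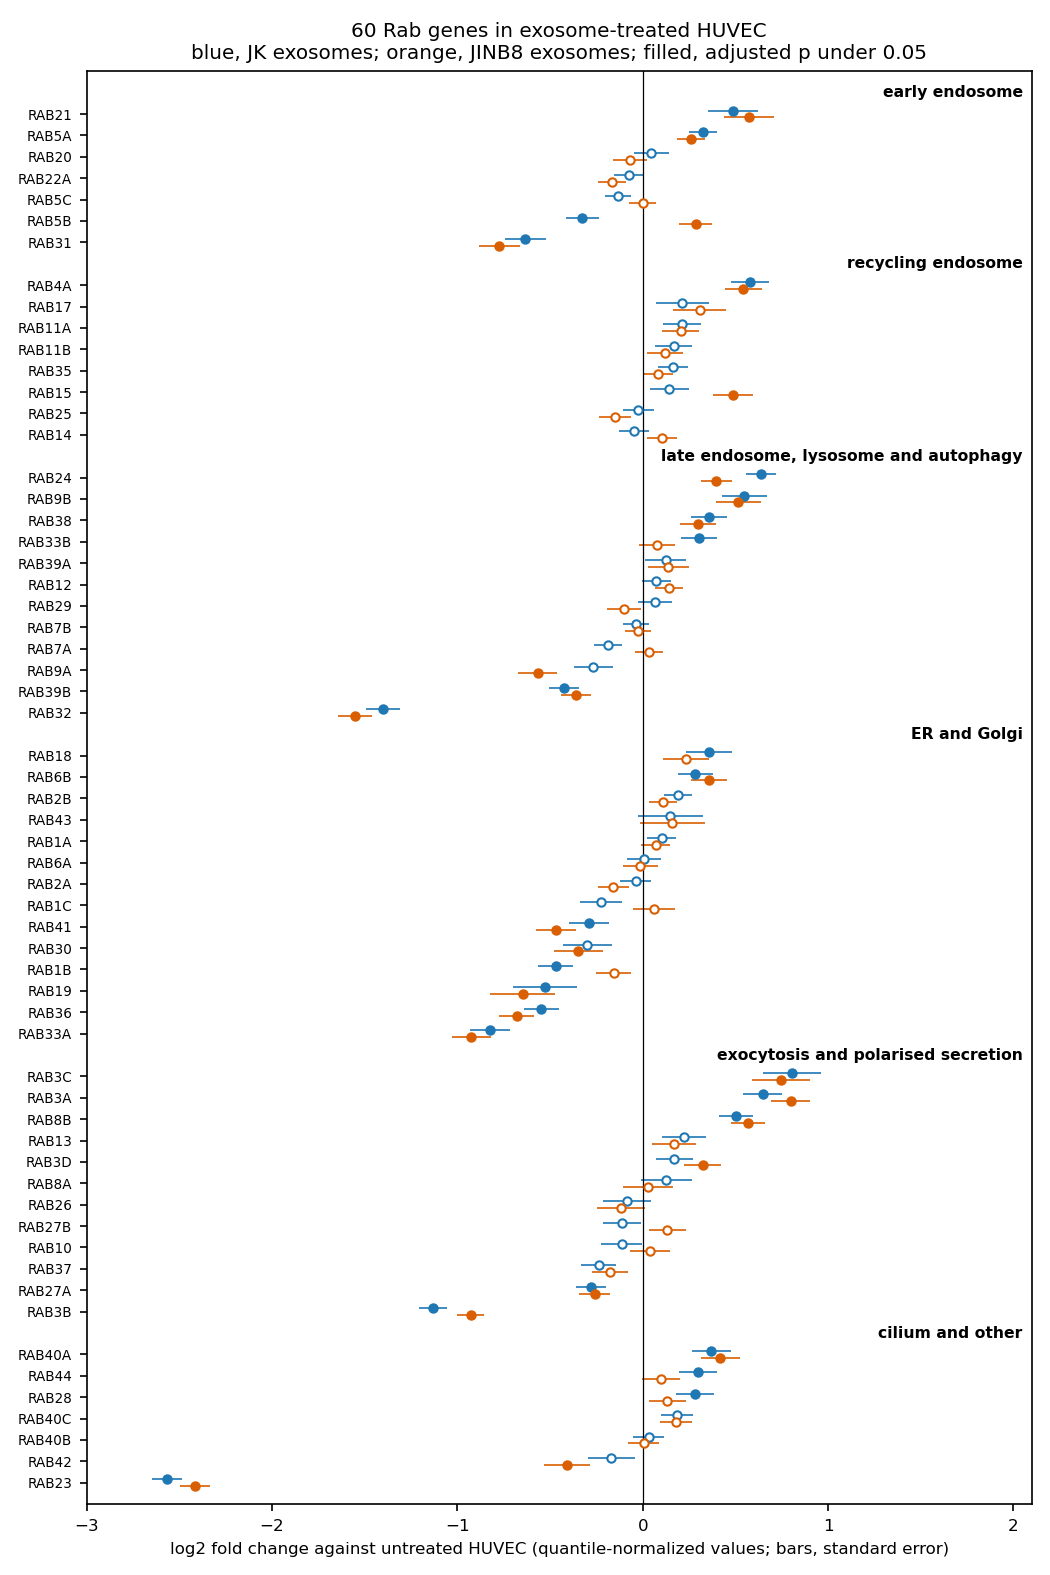
Log2 fold changes against untreated HUVEC (x axis, quantile-normalized values, bars are limma's standard errors) of the 60 Rab genes, grouped by the compartment their proteins serve. Blue points are JK and orange points JINB8 exosomes, filled where the adjusted p was under 0.05. RAB23, RAB32 and RAB3B stand farthest to the left and RAB3C and RAB3A farthest to the right, and on deposited values all 60 lay below 0.

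RAB23, a regulator of Hedgehog signalling at the cilium, had quantile-normalized signals of 9.50, 9.42 and 9.36 on the untreated arrays, 6.79, 6.95 and 6.84 with JK exosomes and 6.95, 6.98 and 7.09 with JINB8 exosomes. All treated arrays thus lay far below all untreated ones. The log2 fold change was -2.57 ± 0.08 (SE, n = 3 per group, adjusted p = 3.73e-09) with JK and -2.42 ± 0.08 (adjusted p = 5.68e-09) with JINB8 exosomes, a 5.92-fold and a 5.34-fold difference. With median centring the values were -2.29 and -2.12. The cilium-linked RAB28 rose with JK exosomes (0.28 ± 0.10, adjusted p = 0.0375, lost with cyclic loess and without untreated replicate 2 or 3 or JK replicate 1 or 3, adjusted p of 0.0503 to 0.146) and had 0.13 ± 0.10 with JINB8 exosomes, which did not pass. RAB40A, of a group that joins ubiquitin ligase complexes, rose in both (0.37 ± 0.10 and 0.42 ± 0.10). RAB44 rose with JK exosomes (0.30) and RAB42 fell with JINB8 exosomes (-0.41). Both were among the dimmest 40% of genes on all 9 HUVEC arrays, where the sizes of changes are uncertain because the values come without detection calls, and median centring ended both calls (0.14, adjusted p = 0.371, and -0.18, adjusted p = 0.191). The RAB44 call was lost with cyclic loess (adjusted p = 0.102) and without any JK array or untreated replicate 1 or 2 (0.0583 to 0.102), and that of RAB42 without untreated replicate 1 or JINB8 replicate 1 or 2 (0.0583 to 0.0653). The other, dimmer RAB44 probeset rose with JK exosomes (0.35, limma, adjusted p = 0.0138) and did not pass with JINB8 exosomes (0.19, adjusted p = 0.13). RAB40B and RAB40C passed in neither comparison.

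Among 12 members of exocytosis and polarised secretion, 3 rose and 2 fell with JK exosomes (25% and 16.7%, against 26.2% and 22.4% of all genes). With JINB8 exosomes 4 rose and 2 fell (33.3% and 16.7%, against 26% and 23.3% of all genes). The RAB3 paralogs, which act in regulated secretion, split. RAB3B signals were 8.82, 8.75 and 8.69 in untreated HUVEC, 7.63, 7.63 and 7.60 with JK and 7.76, 7.85 and 7.86 with JINB8 exosomes. RAB3A signals were 6.34, 6.51 and 6.72 untreated, 7.11, 7.16 and 7.25 with JK and 7.40, 7.38 and 7.19 with JINB8 exosomes. Neither gene's treated and untreated values overlapped, and they lay on opposite sides. RAB3B had log2 fold changes of -1.13 ± 0.07 (adjusted p = 6.5e-07) and -0.93 ± 0.07 (adjusted p = 2.44e-06). RAB3A, which with RAB3C is best known from neurons, had 0.65 ± 0.11 (adjusted p = 0.000448) and 0.80 ± 0.11 (adjusted p = 9.71e-05), but -1.05 and -0.93 as deposited. RAB3C rose by 0.81 ± 0.16 and 0.75 ± 0.16 on the normalized scale, with untreated arrays of 5.58, 5.22 and 5.07, and was among the dimmest 40% of genes on 3 of 9 HUVEC arrays. RAB3D, found on Weibel-Palade bodies, had 0.17 ± 0.10 (adjusted p = 0.184) and 0.32 ± 0.10 (adjusted p = 0.0195), and the latter call was lost without untreated replicate 2 (0.30, adjusted p = 0.0595) or JINB8 replicate 3 (0.23, adjusted p = 0.0832).

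RAB8B, a regulator of polarised transport to the plasma membrane, had signals of 8.64, 8.43 and 8.52 in untreated HUVEC, 9.08, 8.89 and 9.13 with JK and 9.16, 9.08 and 9.06 with JINB8 exosomes. Its log2 fold changes were 0.50 ± 0.09 and 0.57 ± 0.09 (-1.01 and -0.93 as deposited). Its paralog RAB8A passed in neither comparison (0.13 ± 0.14 and 0.03 ± 0.14). RAB27A, which drives the exocytosis of Weibel-Palade bodies and the release of exosomes, had untreated signals of 7.51, 7.63 and 7.66 against 7.30, 7.39 and 7.26 with JK and 7.43, 7.28 and 7.30 with JINB8 exosomes. The treated arrays lay just below the untreated ones, and the fall of -0.28 ± 0.08 (adjusted p = 0.0146) and -0.26 ± 0.08 (adjusted p = 0.0208) was small. Median centring ended both calls (-0.10, adjusted p = 0.351, and -0.06, adjusted p = 0.606). The JINB8 call of RAB27A was also lost without untreated replicate 2 (adjusted p = 0.0544), untreated replicate 3 (0.0625), JINB8 replicate 2 (0.0767) or JINB8 replicate 3 (0.0642). RAB27B, dim on all 9 HUVEC arrays, passed in neither comparison (-0.11 and 0.13). RAB13, a regulator of endothelial junctions, did not pass either on the probeset used (0.22 ± 0.12 and 0.17 ± 0.12), while its other probeset rose (0.59, adjusted p = 0.000649, and 0.59, adjusted p = 0.00064). RAB10, RAB26 and RAB37 did not pass.

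**Figure D2:**
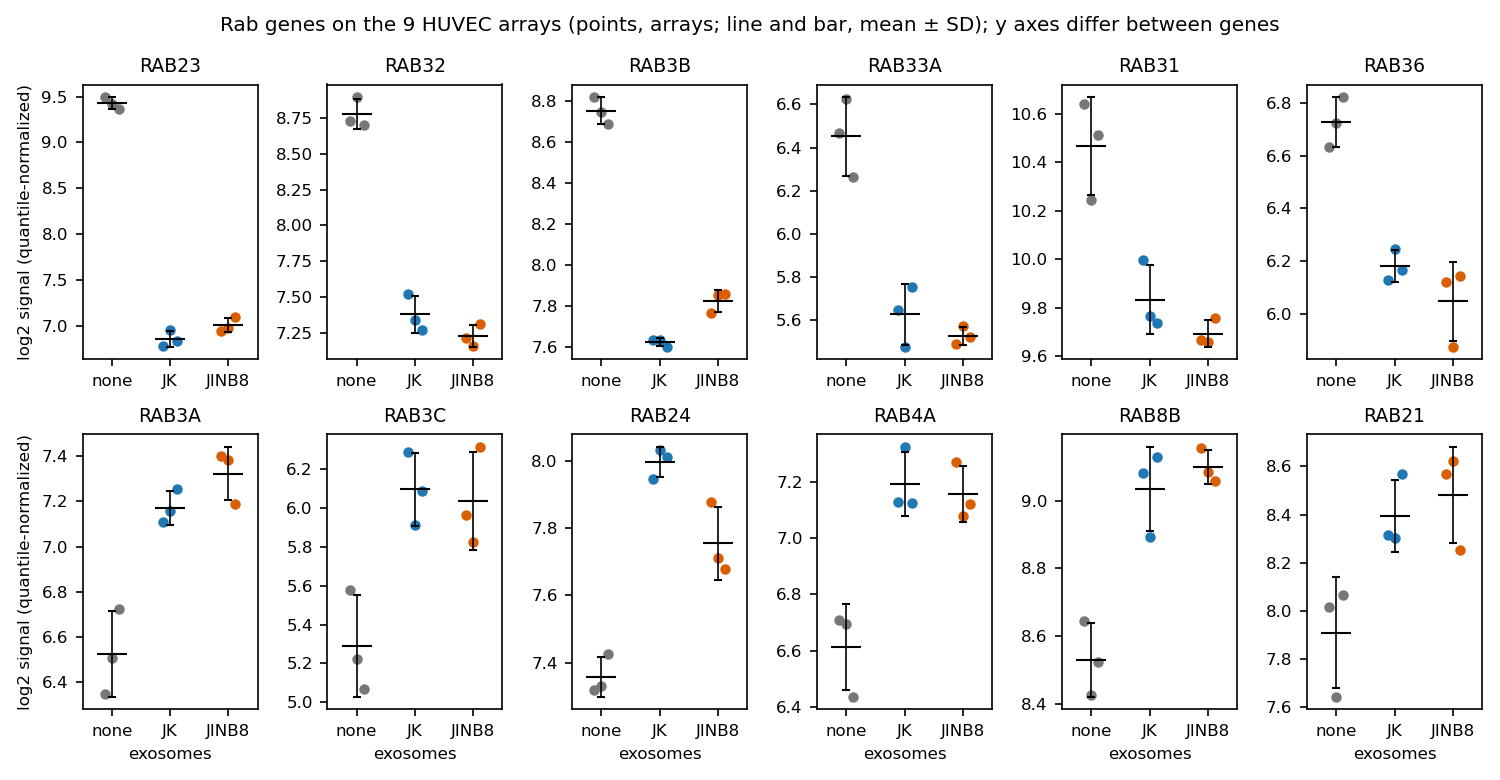
Quantile-normalized log2 signal (y axis, scaled per gene) of 12 Rab genes on the 9 HUVEC arrays, by exosome treatment (x axis). Points are arrays, and the line and bar are the mean ± SD of 3. The top row holds genes that fell and the bottom row genes that rose relative to other genes (all 12 were lower as deposited), and treated arrays do not overlap untreated ones.

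In the early endosome group RAB5 paralogs differed. RAB5A, which drives fusion of early endosomes, had untreated signals of 10.03, 9.97 and 10.07 against 10.41, 10.30 and 10.34 with JK and 10.35, 10.28 and 10.24 with JINB8 exosomes. It rose by 0.32 ± 0.08 (adjusted p = 0.00414) and 0.26 ± 0.08 (adjusted p = 0.0131), though as deposited it changed by -1.05 and -1.08, and the second call was lost with cyclic loess (0.18, adjusted p = 0.0593) and without JINB8 replicate 1 (0.23, adjusted p = 0.0521). RAB5B, singled out after its values were seen, had signals of 9.59, 9.68 and 9.57 untreated, 9.26, 9.23 and 9.36 with JK and 9.75, 9.93 and 10.03 with JINB8 exosomes. Its JK arrays thus lay below and its JINB8 arrays above the untreated ones on this scale. The changes were -0.33 ± 0.09 (adjusted p = 0.0106) and 0.29 ± 0.09 (adjusted p = 0.0199). The former became 0.01 with median centring (adjusted p = 0.918), and the latter was lost with cyclic loess (0.22, adjusted p = 0.0697) and without untreated replicate 3 (0.27, adjusted p = 0.0554), JINB8 replicate 2 (0.27, adjusted p = 0.0621) or JINB8 replicate 3 (0.22, adjusted p = 0.0797). RAB5C passed in neither comparison (-0.13 and 0.00). RAB21, which traffics integrins, rose from 8.01, 7.64 and 8.07 to 8.31, 8.30 and 8.57 with JK and to 8.57, 8.62 and 8.25 with JINB8 exosomes. These are changes of 0.49 ± 0.14 and 0.57 ± 0.14 (adjusted p = 0.0116 and 0.00452), against -1.08 and -0.98 as deposited. RAB31, which acts between the Golgi and endosomes, fell by 0.63 ± 0.11 and by 0.77 ± 0.11, calls that median centring ended (-0.20, adjusted p = 0.18, and -0.28, adjusted p = 0.0681). RAB20 and RAB22A did not pass.

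RAB4A was the one recycling-endosome gene of 8 to rise with JK exosomes, and none fell, where 26.2% of all genes rose and 22.4% fell. RAB4A, which returns receptors rapidly to the surface, had untreated signals of 6.71, 6.70 and 6.44 against 7.13, 7.32 and 7.12 with JK and 7.27, 7.08 and 7.12 with JINB8 exosomes. Its changes were 0.58 ± 0.10 and 0.54 ± 0.10 (adjusted p = 0.00068 and 0.000982), against -1.13 and -1.20 as deposited. RAB15 rose with JINB8 exosomes (0.49 ± 0.11, adjusted p = 0.00294) and had 0.14 ± 0.11 with JK exosomes, which did not pass. RAB11A, the main Rab of the slow recycling route, had 0.21 ± 0.10 and 0.20 ± 0.10 and did not pass, nor did RAB35 (0.16 and 0.08). Both passed with median centring (0.57 and 0.63 for RAB11A, 0.41 and 0.40 for RAB35). RAB11B, RAB14, RAB17 and RAB25 did not pass on the main scale.

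Among 12 genes of late endosomes, lysosomes and autophagy, 4 rose and 2 fell with JK exosomes (33.3% and 16.7%, against 26.2% and 22.4% of all genes). With JINB8 exosomes 3 rose and 3 fell (25% each, against 26% and 23.3% of all genes). RAB32, which acts on mitochondria, autophagosomes and lysosome-related organelles, had untreated signals of 8.73, 8.90 and 8.70 against 7.52, 7.34 and 7.27 with JK and 7.21, 7.16 and 7.31 with JINB8 exosomes. It fell by 1.40 ± 0.09 (adjusted p = 6.92e-07) and by 1.55 ± 0.09 (adjusted p = 3.34e-07), and by 1.15 and 1.29 with median centring. Its paralog RAB38 rose slightly (0.36 ± 0.10 and 0.30 ± 0.10, adjusted p = 0.0102 and 0.0243), the second call being lost without untreated replicate 1 or 3 or JINB8 replicate 2 or 3 (adjusted p of 0.0595 to 0.0867). RAB24, an atypical Rab linked to autophagy, had untreated signals of 7.32, 7.33 and 7.43 against 7.95, 8.03 and 8.01 with JK and 7.88, 7.71 and 7.68 with JINB8 exosomes. The rise was 0.64 ± 0.08 (adjusted p = 7.76e-05) and 0.40 ± 0.08 (adjusted p = 0.00191), against -0.97 and -1.23 as deposited. RAB9A, which returns cargo from late endosomes to the Golgi, had -0.27 ± 0.11 with JK exosomes (adjusted p = 0.0538) and fell with JINB8 exosomes (-0.57 ± 0.11, adjusted p = 0.000969). RAB9B rose in both (0.55 ± 0.12 and 0.52 ± 0.12) and RAB39B fell in both (-0.42 ± 0.08 and -0.36 ± 0.08), both dim genes, and median centring gave RAB39B -0.10 (adjusted p = 0.409) and 0.04 (adjusted p = 0.728). RAB7A, the central Rab of late endosomes and lysosomes, did not pass (-0.19 ± 0.07 with JK, adjusted p = 0.0569, and 0.03 ± 0.07 with JINB8 exosomes), but rose with median centring (0.52 and 0.84). RAB33B rose with JK exosomes (0.30), a call lost with cyclic loess (adjusted p = 0.052) and without untreated replicate 2 or 3 or JK replicate 1 or 2 (0.0514 to 0.0981). RAB7B, RAB12, RAB29 and RAB39A did not pass.

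Of 14 ER and Golgi members 2 rose and 5 fell with JK exosomes (14.3% and 35.7%, against 26.2% and 22.4% of all genes). With JINB8 exosomes 1 rose and 5 fell (7.14% and 35.7%, against 26% and 23.3% of all genes). RAB33A, a Golgi Rab, had untreated signals of 6.47, 6.63 and 6.26 against 5.65, 5.48 and 5.76 with JK and 5.49, 5.57 and 5.52 with JINB8 exosomes. It fell by 0.82 ± 0.11 (adjusted p = 7.98e-05) and by 0.92 ± 0.11 (adjusted p = 3.26e-05), and was dim on 4 of 9 HUVEC arrays. RAB36 fell by 0.55 ± 0.09 and by 0.68 ± 0.09. RAB19 fell by 0.53 ± 0.17 and by 0.65 ± 0.17, but with JK exosomes its arrays overlapped the untreated ones, and the JK call was lost without untreated replicate 2 or 3 or JK replicate 1 or 2 (adjusted p of 0.0653 to 0.103). RAB41, dim on all 9 HUVEC arrays, fell by 0.29 ± 0.11 and by 0.47 ± 0.11, the first only just (adjusted p = 0.043). That JK call was lost with the replicate number as a block (adjusted p = 0.0647) and without any of untreated replicates 1 to 3 or JK replicates 2 and 3 (adjusted p = 0.0651 to 0.14). RAB1B, of transport from the ER to the Golgi, fell with JK exosomes (-0.47 ± 0.09) and had 0.02 with median centring, while RAB30 fell with JINB8 exosomes (-0.35 ± 0.13, adjusted p = 0.0485, and -0.09 with median centring, adjusted p = 0.606) with overlapping arrays. The RAB30 call was lost with the replicate block (adjusted p = 0.0692) and without any single array but untreated replicate 2 (0.06 to 0.162). RAB6B rose in both (0.28 ± 0.10 and 0.36 ± 0.10) and RAB18 with JK exosomes (0.36 ± 0.12). With JK exosomes the RAB6B call was lost with cyclic loess (adjusted p = 0.0504) and without untreated replicate 1 or 3 or JK replicate 2 or 3 (0.0543 to 0.106), and the RAB18 call with cyclic loess (0.0792), with the replicate block (0.0503) and without untreated replicate 2 or JK replicate 1 or 2 (0.102 to 0.13). RAB1A, RAB1C, RAB2A, RAB2B, RAB6A and RAB43 did not pass. RAB1C is a pseudogene in RefSeq, and its signal, like those of other near-identical Rab copies, is uncertain as that of a single gene.

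Read by function, 1 of 10 Rabs of exosome release (RAB5A) rose and 2 (RAB27A and RAB31) fell with JK exosomes, and 1 rose and 3 fell with JINB8 exosomes, RAB9A in addition. Of 7 Rabs of Weibel-Palade bodies, RAB3A rose and RAB3B, RAB33A and RAB27A fell with JK exosomes, and with JINB8 exosomes RAB3D and RAB15 rose as well. With JK exosomes 26.2% of all genes rose and 22.4% fell, and with JINB8 exosomes 26% and 23.3% did. Medians of the Weibel-Palade body genes were -0.24 and -0.18, and those of the 10 exosome-release genes 0.02 and 0.10. Median centring gave -0.10 and -0.06 for the former and 0.43 and 0.42 for the latter, against 0.10 and 0.13 over all genes. These small counts got no test of their own.

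The genes that control Rabs were read on the same scale, where 26.2% of all genes rose and 22.4% fell with JK exosomes and 26% and 23.3% did with JINB8 exosomes. Of 35 Rab GTPase-activating proteins 17 rose and 6 fell with JK exosomes (48.6% and 17.1%), and 18 rose and 7 fell with JINB8 exosomes (51.4% and 20%), with medians of 0.16 and 0.27. TBC1D15, which acts on RAB7, rose by 1.28 ± 0.10 and 1.36 ± 0.10, and RABGAP1 by 1.03 ± 0.08 and 0.97 ± 0.08. TBCK and TBC1D9B, both with the TBC domain of these proteins, rose by 1.00 and 0.96 with JK and by 0.94 and 0.99 with JINB8 exosomes. Of 42 exchange factors and their subunits 16 rose and 9 fell (38.1% and 21.4%), and 14 rose and 11 fell (33.3% and 26.2%). TRAPPC9 rose by 1.43 ± 0.09 and 1.36 ± 0.09, and DENND1B, which acts on RAB35, fell by 1.47 ± 0.11 and by 1.39 ± 0.11. RAB3IP, also called Rabin8 and an activator of RAB8, rose by 1.25 ± 0.13 and 1.39 ± 0.13. Among 51 effectors 22 rose and 13 fell (43.1% and 25.5%), and 22 rose and 12 fell (43.1% and 23.5%). EXOC6, an exocyst subunit, rose by 1.61 ± 0.12 and 1.77 ± 0.12, ACAP2, an effector of RAB35, by 0.82 ± 0.08 and 0.93 ± 0.08, and MICAL1 fell by 1.40 ± 0.15 and by 1.35 ± 0.15. Of 6 genes of prenylation and recycling 4 fell in each comparison (66.7%) and 1 rose with JK exosomes (16.7%). These shares got no test. RABGGTA and RABGGTB, the subunits of the transferase, parted with JK exosomes (-0.75 ± 0.08 and 0.40 ± 0.08), and CHML fell by 0.82 ± 0.13 and by 0.85 ± 0.13. Each gene named here as a regulator or effector kept its direction with median centring, but as deposited only EXOC6 was above untreated HUVEC (0.16 and 0.34) and the others were below.

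JINB8-treated against JK-treated HUVEC asked whether the cells differed with the donor T cell line, of which CD47 is only 1 known difference. No member passed, nor did any of the 18417 genes (0%, limma). Some treated arrays correlated more closely across the groups than within them. JK replicate 1 had 0.9946 with JK replicate 2 and 0.9909 with JK replicate 3, but 0.9935 with JINB8 replicate 3. JK replicate 3 had 0.9899 with JK replicate 2 but 0.9917 with JINB8 replicate 1. Such a split widens or shifts the spread within groups, and its part in the absence of calls was not tested. At an unadjusted p under 0.05 there were 8 of 60 members, against 9.11% of all genes, and the groups did not overlap for 14 members, against 17.5% of all genes. RAB5B came nearest, with deposited signals of 8.79, 8.70 and 8.89 in JK-treated and 9.27, 9.47 and 9.58 in JINB8-treated HUVEC. All 3 JINB8 arrays lay above all 3 JK arrays. The log2 difference was 0.65 ± 0.10 (unadjusted p = 3.2e-05, adjusted p = 0.084). It passed with median centring (adjusted p = 0.0442), without the 40% dimmest genes (0.0474) and with a variance trend and robust fitting (0.0181), and over all alternatives the adjusted p ran from 0.0181 to 0.482. RAB1B (0.35 ± 0.11), RAB7A (0.27 ± 0.09), RAB9A (-0.35 ± 0.11) and RAB24 (-0.26 ± 0.09) followed with adjusted p of 0.333 to 0.42. For RAB27A the difference was -0.01 with a 95% interval of -0.20 to 0.18, for RAB5A -0.04 (-0.23 to 0.16), for RAB11A 0.00 (-0.23 to 0.23) and for RAB35 -0.06 (-0.26 to 0.13). RAB27B, RAB3D and RAB13 had 0.22 (-0.01 to 0.45), 0.13 (-0.13 to 0.38) and -0.04 (-0.27 to 0.18).

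In exosome RNA 1 Rab gene differed between the lines. RAB7A had deposited signals of 5.357, 4.999 and 4.951 in JK and 5.611, 5.769 and 5.707 in JINB8 exosomes. The JINB8 arrays were all higher, and JK replicate 1 was the nearest to them. The log2 difference was 0.59 ± 0.10 (adjusted p = 0.0223), and 1 of 60 members is to be read against 0.679% of all genes called (0.668% higher and 0.0109% lower). That call did not hold when the gene's 2 probesets were averaged (0.36, adjusted p = 0.0847), since the dimmer probeset differed by only 0.12 (adjusted p = 0.77). Leaving out JK replicate 2 (0.54, adjusted p = 0.0897), JK replicate 3 (0.52, adjusted p = 0.131), JINB8 replicate 2 (0.56, adjusted p = 0.102) or JINB8 replicate 3 (0.59, adjusted p = 0.104) also ended it, at nearly the same size.

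The next genes by p did not pass. RAB14, which acts between the Golgi and endosomes, had signals of 4.81, 4.68 and 4.69 in JK and 5.12, 4.99 and 5.28 in JINB8 exosomes, a difference of 0.41 ± 0.09 (adjusted p = 0.071). RAB5C had 5.64, 5.62 and 5.69 in JK and 6.28, 5.87 and 6.08 in JINB8 exosomes, a difference of 0.43 ± 0.10 (adjusted p = 0.0951). Both showed no overlap between the lines. RAB14 passed without the 40% dimmest genes (adjusted p = 0.0365), and with all 15 arrays in 1 fit both passed (adjusted p = 0.0373 and 0.0363). RAB5C also passed without JINB8 replicate 2 (0.53, adjusted p = 0.0342). RAB11B, RAB8A and RAB1C had 0.35 ± 0.09, 0.31 ± 0.09 and -0.23 ± 0.10, with adjusted p of 0.162 to 0.559. RAB27A had 0.15 ± 0.08 (adjusted p = 0.732), RAB27B 0.08 ± 0.07, RAB5A 0.15 ± 0.10, RAB11A 0.15 ± 0.09, RAB35 0.10 ± 0.11, RAB3D -0.01 ± 0.13 and RAB13 0.03 ± 0.09, none past the threshold. Groups did not overlap for 12 of 60 members against 12.9% of all genes, and 6 members had an unadjusted p under 0.05 against 8.06%. Mean signals of the 10 T cell markers were also higher in JINB8 (6.01 to 6.04) than in JK exosomes (5.81 to 5.96), with 0 of 10 called and 3 at an unadjusted p under 0.05, and their part in the result was not tested.

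**Figure D3:**
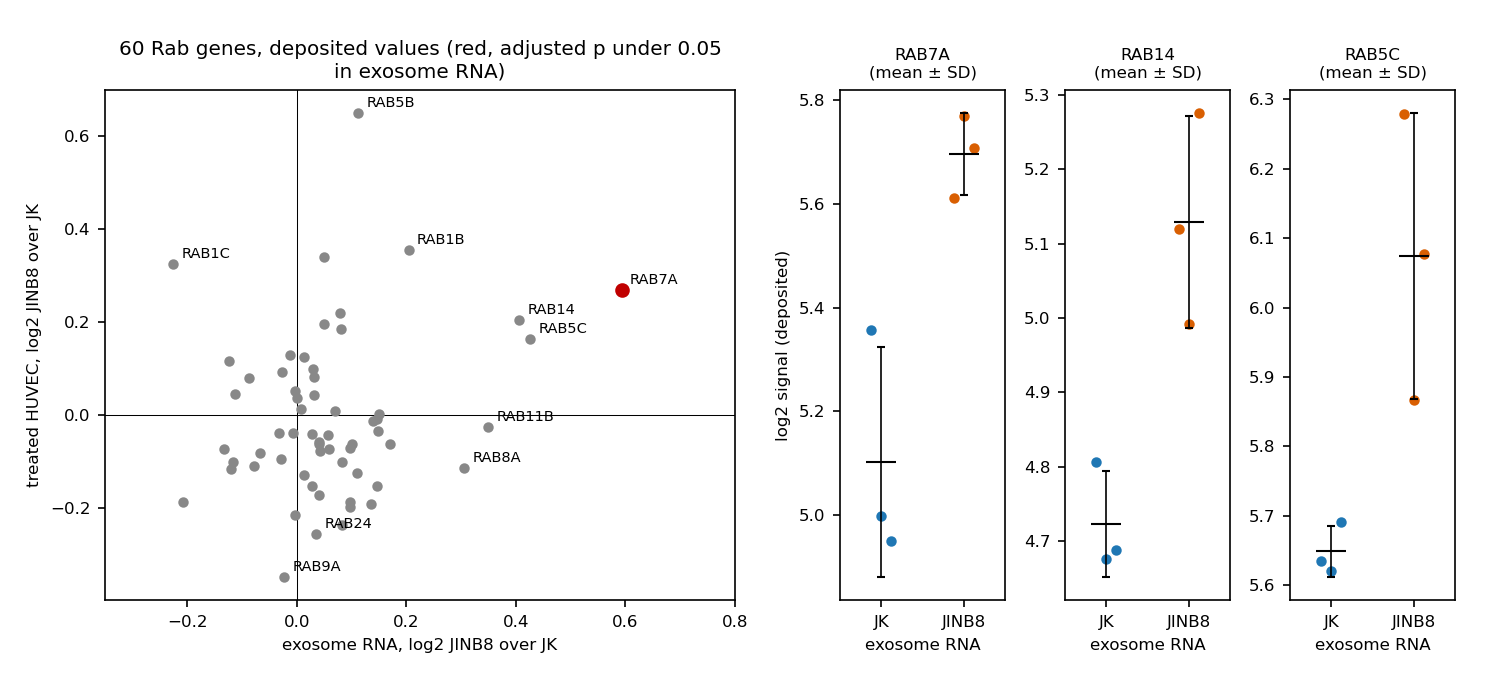
Left, log2 JINB8 over JK of the 60 Rab genes in exosome RNA (x axis) and in treated HUVEC (y axis), deposited values. RAB7A is red because it alone passed in exosome RNA, and RAB5B lies highest on the HUVEC axis. Right, deposited log2 signal of RAB7A, RAB14 and RAB5C on the 6 exosome arrays with mean ± SD of 3 per line, where JINB8 points lie above JK points for each gene.

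Whether the lines differed alike in vesicles and in the cells that received them was tested as the difference between both effects. No member passed (limma, 0.787% of all genes did), and 12 of 60 had an unadjusted p under 0.05, against 12% of all genes. RAB5B had the smallest p (-0.54 ± 0.13, adjusted p = 0.0677), being 0.11 ± 0.08 higher in JINB8 exosomes but 0.65 higher in JINB8-treated HUVEC. Its call appeared without the 40% dimmest genes (adjusted p = 0.0394), with a variance trend and robust fitting (0.0443), without JK-treated replicate 3 (-0.58, adjusted p = 0.0355) and without JINB8-treated replicate 1 (-0.62, adjusted p = 0.0377). RAB1C, RAB8A, RAB11B and RAB24 followed (-0.55, 0.42, 0.38 and 0.29, adjusted p of 0.115 to 0.289). For RAB7A the difference was 0.32 with a 95% interval of 0.03 to 0.62 (adjusted p = 0.368).

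Exosome RNA was also set against the treated HUVEC. Array medians were close over all probesets, but over the 18417 genes compared they were 5.57 to 5.67 in treated HUVEC and 5.17 to 5.22 in exosome RNA. As deposited, 42 of 60 Rab genes were lower in exosome RNA and 18 higher, where 49.7% of all genes were lower and 45.3% higher (94.9% either way). The arrays did not overlap for 59 members, against 88.4% of all genes. The family median was -2.09 and that of all genes -0.13. Lower at least 2-fold were 38 of 60 members, against 7125 of 18417 genes. RAB7A was lowest relative to HUVEC, with treated HUVEC between 11.45 and 11.82 and exosomes between 4.95 and 5.77, a log2 difference of -6.21 ± 0.07 (adjusted p = 2.39e-20), or -4.34 with quantile normalization over the 12 arrays. Its other, dimmer probeset differed by only -0.56 ± 0.14 on deposited values (limma, adjusted p = 0.00131). RAB5C, RAB10, RAB18, RAB14 and RAB1A followed on deposited values with -5.49, -5.36, -5.29, -5.08 and -5.01 (SE 0.05 to 0.09), genes of early endosomes, exocytosis, lipid droplets and ER, endosome-Golgi traffic and ER-to-Golgi transport. RAB11A and RAB5A had -4.81 and -4.61. With quantile normalization the order changed: RAB18 (-4.25), RAB10 (-4.22), RAB21 (-3.77) and RAB1A (-3.66) came after RAB7A, and RAB14, RAB11A, RAB5C and RAB5A had -3.55, -3.61, -3.24 and -2.94. RAB10, RAB18, RAB1A and RAB11A were among the dimmest 40% of genes on all 6 exosome arrays, so the sizes of their differences are uncertain. Vesicle against cell and T cell line against endothelium cannot be told apart here. T cell markers were higher in exosome RNA for 10 of 10 genes (mean signal 5.81 to 6.04 against 3.99 to 4.09 in treated HUVEC) and endothelial markers lower for 9 of 10 (5.12 to 5.25 against 9.48 to 9.74). Of 10 mural cell and fibroblast markers 7 were higher too and 2 lower, where 45.3% of all genes were higher. The part of cell type in these directions was not tested.

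The members' brightness in HUVEC is given beside these directions only as a description, because the treated HUVEC arrays that enter it are also the reference of the difference. Of 45 members among the brightest 60% of genes on all 9 HUVEC arrays, 41 were lower in exosome RNA (91.1%, against 81.3% of the 9880 genes of that class), with a median of -2.95 against -1.94. All 11 members among the dimmest 40% on all HUVEC arrays were higher, as were 88.5% of the 6218 genes of that class. On the exosome arrays 26 of 60 members were themselves among the dimmest 40% on all 6 arrays. The part of the narrower exosome spread in these directions was not tested. After quantile normalization over the 12 arrays 37 members were lower and 18 higher, the family median was -1.09 and that of all genes 0.23, and 5 members changed sign (RAB3A, RAB13, RAB39A, RAB40B and RAB40C). With median centring over the genes 40 were lower and 18 higher, and RAB3A (0.11) and RAB40B (0.0044) changed sign. All genes were not counted by direction on these scales, so the member counts have no share beside them.

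By role, the exosome-release Rabs were lower in exosome RNA for 9 of 10 genes, with a median of -3.01. Lower shares were 49.7% over all genes and 81.3% over the genes bright in HUVEC. The latter class was picked by HUVEC signal, part of which is the reference here, so its share is only a description. The role lists also hold genes outside that class, such as RAB27B. RAB27A had signals of 6.70 to 6.88 in treated HUVEC and 5.23 to 5.57 in exosome RNA, without overlap, a difference of -1.41 ± 0.06 (-0.55 with quantile normalization). Its paralog RAB27B went the other way (0.48 ± 0.06, and 0.19 with quantile normalization). RAB27B was among the dimmest 40% of genes on all 9 HUVEC and all 6 exosome arrays, so the size of that difference is uncertain. RAB35 had 7.89 to 8.08 in treated HUVEC and 5.32 to 5.77 in exosomes (-2.42 ± 0.08). RAB3D had -1.24 ± 0.10, which did not pass with quantile normalization (-0.23, adjusted p = 0.148), and RAB13 had -1.23 ± 0.07 but 0.90 with quantile normalization. The other RAB13 probeset had -2.11 ± 0.08 on deposited values. On deposited values RAB19 and RAB37 were the highest of the 18 higher members. RAB37, known from secretory granules of blood cells, had 3.93 to 4.18 in treated HUVEC and 5.50 to 5.68 in exosome RNA (1.54 ± 0.06). RAB19 had 1.61 ± 0.08, RAB17 1.35 ± 0.09, RAB25 1.33 ± 0.06 and RAB7B 1.32 ± 0.05. RAB41, RAB40A and RAB9B completed the 8 highest with 1.08, 0.94 and 0.89. RAB25 and RAB41 were dim on all 9 HUVEC and all 6 exosome arrays, and RAB37, RAB7B and RAB9B on all 9 HUVEC arrays. The sizes of these differences are therefore uncertain. With quantile normalization RAB19 (2.93), RAB17 (2.45), RAB40A (2.27), RAB7B (2.104), RAB36 (2.03) and RAB38 (1.93) came before RAB37 (1.89). For the counts that follow, 49.7% of all genes were lower. The 81.3% of the genes bright in HUVEC is again only a description, since the lists mix bright and dim genes. Early endosome members were lower for 6 of 7 genes, recycling members for 6 of 8, ER and Golgi members for 10 of 14, secretory members for 9 of 12, late endosome members for 7 of 12 and the rest for 4 of 7. Of the genes that control Rabs, all 6 of prenylation and recycling, 31 of 35 GTPase-activating proteins (88.6%), 30 of 42 exchange factors (71.4%) and 34 of 51 effectors (66.7%) were lower too.

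**Figure D4:**
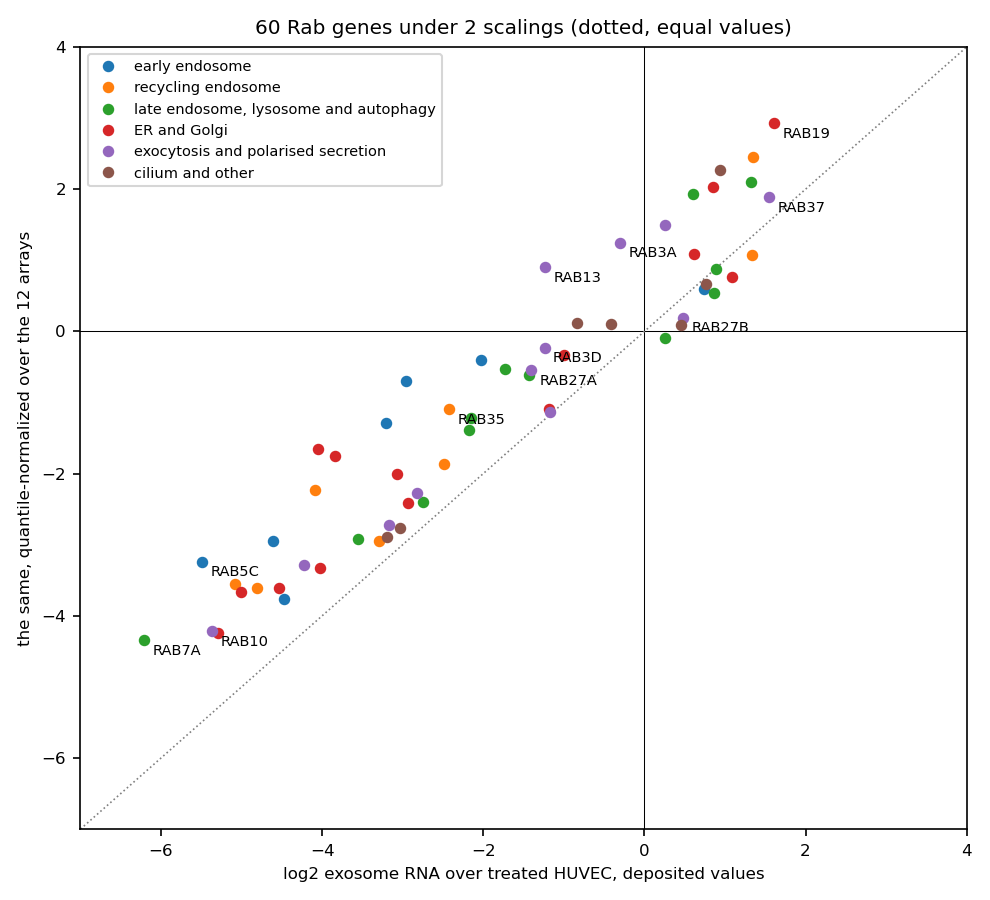
Log2 exosome RNA over treated HUVEC of the 60 Rab genes on deposited values (x axis) and after quantile normalization over the 12 arrays (y axis), coloured by compartment, with equal values on the dotted line. Most points lie below 0 on both axes, and RAB3A and RAB13 are among 5 genes whose sign differs between the scalings.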

How the data were processed

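RNA of 9 HUVEC and 6 exosome samples was measured on 15 Affymetrix whole-transcript arrays, and their number limits the precision. The deposited values are log2 signals by their range. Per the submitters' processing notes they were made with Affymetrix Expression Console, while its version, the background correction and the normalization were not given in the sources used here. Of 33297 probesets 19460 had 1 gene symbol in the platform annotation, which gave 18417 genes, each represented by the probeset whose mean over the 15 arrays was highest. The 5 probesets that pair a Rab symbol with others were not used.

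Here limma 3.58.1 in R 4.3.3 (lmFit, eBayes) was fitted over all genes, with Benjamini-Hochberg adjustment and a threshold of 0.05. Comparisons with untreated HUVEC used 9 arrays after quantile normalization. The others used deposited values: 9 HUVEC arrays, 6 exosome arrays, or 12 arrays. Standard errors are limma's, and with 3 against 3 arrays an exact two-sided permutation test cannot go below 0.1. Per comparison, members named were the 8 highest and 8 lowest passing changes with groups that do not overlap and, against untreated HUVEC, 1 direction with median centring. Where fewer than 5 passed, the 5 smallest p were added. RAB27A, RAB27B, RAB5A, RAB7A, RAB11A, RAB35, RAB3D and RAB13 were always named. Other members are named in summaries of their group. This family, the members always named and the lists were chosen with earlier results of these data known. Which genes belong to the family followed from their symbols alone. The gene lists got no set test. The fits were run before use on simulated arrays, drawn independently around 1 mean per gene, with known changes added to some genes. Of genes raised 1.5-fold, 55.2% to 98.5% were called, depending on the comparison. The simulated arrays had no level shift between groups and no links between arrays, so they tell nothing about the effects of either. RAB5B in the comparisons with untreated HUVEC was named after its values were seen.
Alternatives were other normalizations, no dim genes, the mean of probesets, a variance trend with robust fitting, the replicate number as a block, other sets of arrays and leaving out each array. Deviations from group means of same-numbered arrays correlated at -0.07 to 0.23 (JK-treated and untreated HUVEC) and -0.01 to 0.06 (JINB8-treated and untreated). Between the treated groups they had -0.45 to -0.18, and in exosome RNA -0.04 to 0.03. Other pairs of arrays reached 0.14, 0.06, 0.33 and 0.05 in these comparisons. With 3 same-numbered pairs each, these values cannot settle whether the numbers pair the samples. The main fits did not use the numbers.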

Additional observations from a re-analysis of the deposited data

How the results depend on the processing

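Deposited values in place of quantile-normalized ones put 0 Rab genes higher and 60 lower than in untreated HUVEC with either exosome, because nearly all genes were. Every member above 0 on the normalized scale turned there, among those named by rule with JK exosomes RAB3C (-1.09), RAB3A (-1.05), RAB24 (-0.97), RAB4A (-1.13), RAB9B (-1.34), RAB8B (-1.01), RAB21 (-1.08), RAB40A (-1.45), RAB5A (-1.05), RAB11A (-1.21), RAB35 (-1.37), RAB3D (-1.48) and RAB13 (-1.31). With JINB8 exosomes they were RAB3A (-0.93), RAB3C (-1.20), RAB21 (-0.98), RAB8B (-0.93), RAB4A (-1.20), RAB9B (-1.40), RAB15 (-1.14), RAB40A (-1.45), RAB5B (-1.12), RAB27B (-1.84), RAB5A (-1.08), RAB7A (-0.999), RAB11A (-1.21), RAB35 (-1.43), RAB3D (-1.35) and RAB13 (-1.35). Median centring gave 30 and 32 higher in place of 15 and 14, and turned, among members called or named by rule, RAB7A (0.52), RAB5B (0.015) and RAB1B (0.02) with JK and RAB39B (0.04) with JINB8 exosomes. RAB13 turned against HUVEC in exosome RNA with quantile normalization (0.90) and with untreated HUVEC as reference (1.10).

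For JINB8-treated against JK-treated HUVEC 1 member was higher in place of 0 with median centring, without the 40% dimmest genes and with trend and robust fitting. In exosome RNA the count of 1 higher became 2 without the dimmest genes, 0 with the mean of probesets and 3 with all 15 arrays in 1 fit. Against HUVEC the 18 higher became 8 without the dimmest genes, since fewer members were tested. In the test of the difference between both effects 1 member was lower in place of 0 without the dimmest genes and with trend and robust fitting. The causes of these moves were not tested, other than where given. For these settings, the left-out arrays and the replicate block, the shares of all genes called are not given. The counts therefore show how stable the calls were and are no result about the family.

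Leaving out 1 array at a time gave 11 to 13 higher and 10 to 13 lower with JK exosomes, 11 to 14 and 10 to 12 with JINB8 exosomes, 0 and 0 between the treated groups, 0 to 1 higher and 0 lower in exosome RNA, 18 and 42 against HUVEC, and 0 higher and 0 to 1 lower in the test of the difference. The replicate block gave 14 higher and 11 lower with JK and 14 and 12 with JINB8 exosomes. It ended the JK calls of RAB41 (adjusted p = 0.0647) and RAB18 (0.0503) and the JINB8 call of RAB30 (0.0692), and no other member's call in the comparisons between HUVEC groups, in exosome RNA or of exosome RNA with HUVEC. Without detection calls, signal over background is unknown for dim members.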
